A study of Mus musculus with 6 samples.

Results

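Neurotrophic factors and their receptors were followed in the retina of mice lacking Wfs1, the gene mutated in Wolfram syndrome. The group comprises 10 genes, chosen by symbol among the 55376 gene rows of the deposited count table. These are the ligands Bdnf, Ntf3, Gdnf and Fgf2, the receptor genes Ntrk2, Ntrk3, Ngfr, Gfra1 and Ret, and the neuropeptide gene Vgf. All 10 were present, and 9 passed the filter on low counts that left 18547 genes to be tested, Ntf3 being the exception. RNA-seq was performed on whole retinas at an age of 240 days, from 3 WT mice and 3 mice of the Wfs1-KO line. The mutant line lacks the last exon of Wfs1 in all cells, not in 1 cell type, and no other allele or treatment is named for either group. The sample labels name the strain as C57x129 for both genotypes, while the methods of the study name C57BL/6 J.

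Neurotrophins are secreted proteins that keep neurons alive and shape their synapses. BDNF acts mainly through the tyrosine kinase TrkB, encoded by Ntrk2, and NT-3 through TrkC, encoded by Ntrk3, while the receptor p75NTR, encoded by Ngfr, binds all neurotrophins. GDNF binds the membrane-anchored co-receptor GFRA1, which presents it to the tyrosine kinase RET. In the retina these pathways are best known for sustaining ganglion cells, the neurons whose axons form the optic nerve, and FGF2 is known as a survival factor for photoreceptors that Müller glia produce after injury.

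The Wfs1-KO replicate 2 library stood apart, with a mean Pearson correlation to the other libraries of 0.918 across genes, against 0.962 to 0.971 for the other 5. The main fold changes and counts are therefore also given without it. Total counts ranged from 17916885 to 101334381 per retina. Wfs1 itself ranged from 61.4 to 69.9 CPM (read counts relative to library size, with TMM scaling) in WT retinas. It was 9.63, 0.900 and 11.5 CPM in mutant replicates 1, 2 and 3, so Wfs1-KO replicate 2 was also the lowest for Wfs1. WT replicate 3 was the only retina with Y-linked Ddx3y above 2 counts, at 1137 counts, and it had 4 counts of Xist, so 1 of the 6 animals differed in sex from the others. The 8 rod markers, which check the labelled tissue, summed to at least 51263 CPM in each retina. In whole tissue, fewer cells of a type and less RNA per cell cannot be told apart.

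The start regions of Bdnf and Gdnf carry the only match among the members to the core of the cyclic AMP response element, the letters TGACGT or, on the other strand, ACGTCA. RefSeq promoters, taken as 250 bases before to 50 bases after each start, were matched for 7 of the 10 genes and numbered 15, of which 7 belong to Bdnf, a gene with several alternative first exons. The core was found in 7.51% of all 32851 promoters of the same length, the full element TGACGTCA in 1.79%, and the STAT-type motif TTCNNNGAA in 8.3%, with both strands searched and the core counted also where it lies within the full element. The full element had no match in any of the 15 promoters. The STAT-type motif matched 1 of them, the promoter of the most upstream Bdnf start, and not the Fgf2 promoter. The 2 promoters with the core are shown because the element is known from activity-regulated genes, and capitals mark the core. That of Bdnf lies at chr2:109692186-109692485 and that of Gdnf at chr15:7809798-7810097, both on the plus strand of GRCm38.p6. The core begins 36 bases before the start in Bdnf and 51 bases before it in Gdnf.
Bdnf promoter: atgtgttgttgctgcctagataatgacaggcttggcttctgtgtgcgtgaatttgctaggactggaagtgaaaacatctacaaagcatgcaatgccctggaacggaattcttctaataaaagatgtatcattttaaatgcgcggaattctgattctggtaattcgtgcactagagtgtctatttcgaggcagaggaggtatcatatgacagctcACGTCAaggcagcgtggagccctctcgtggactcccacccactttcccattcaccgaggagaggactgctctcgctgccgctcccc
Gdnf promoter: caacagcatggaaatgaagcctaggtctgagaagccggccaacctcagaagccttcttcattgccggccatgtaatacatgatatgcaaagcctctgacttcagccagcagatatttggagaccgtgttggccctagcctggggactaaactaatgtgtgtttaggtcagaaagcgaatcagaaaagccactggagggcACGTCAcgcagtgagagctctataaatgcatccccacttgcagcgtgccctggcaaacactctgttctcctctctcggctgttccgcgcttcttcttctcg

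No member passed the adjusted threshold between genotypes in the quasi-likelihood test of edgeR, with p-values adjusted by Benjamini-Hochberg, either on 6 retinas or without Wfs1-KO replicate 2. Over all tested genes 0.0108% passed on 6 retinas and 0.125% passed without that retina, and the smallest adjusted p among members was 0.979 and 0.313. At an unadjusted p under 0.05, the only member on 6 retinas was Fgf2, against 2.81% of all genes. Without Wfs1-KO replicate 2 there were 2, Bdnf and Gfra1, against 5.19% of all genes. DESeq2 called no member on 6 retinas, against 0.246% of all genes, and called Bdnf without Wfs1-KO replicate 2, against 0.475% of all genes. The median log2 fold change of the 9 tested members, Wfs1-KO minus WT, was 0.11, beside 0.02 over all tested genes, and 0.10 without Wfs1-KO replicate 2.

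**Figure D1:**
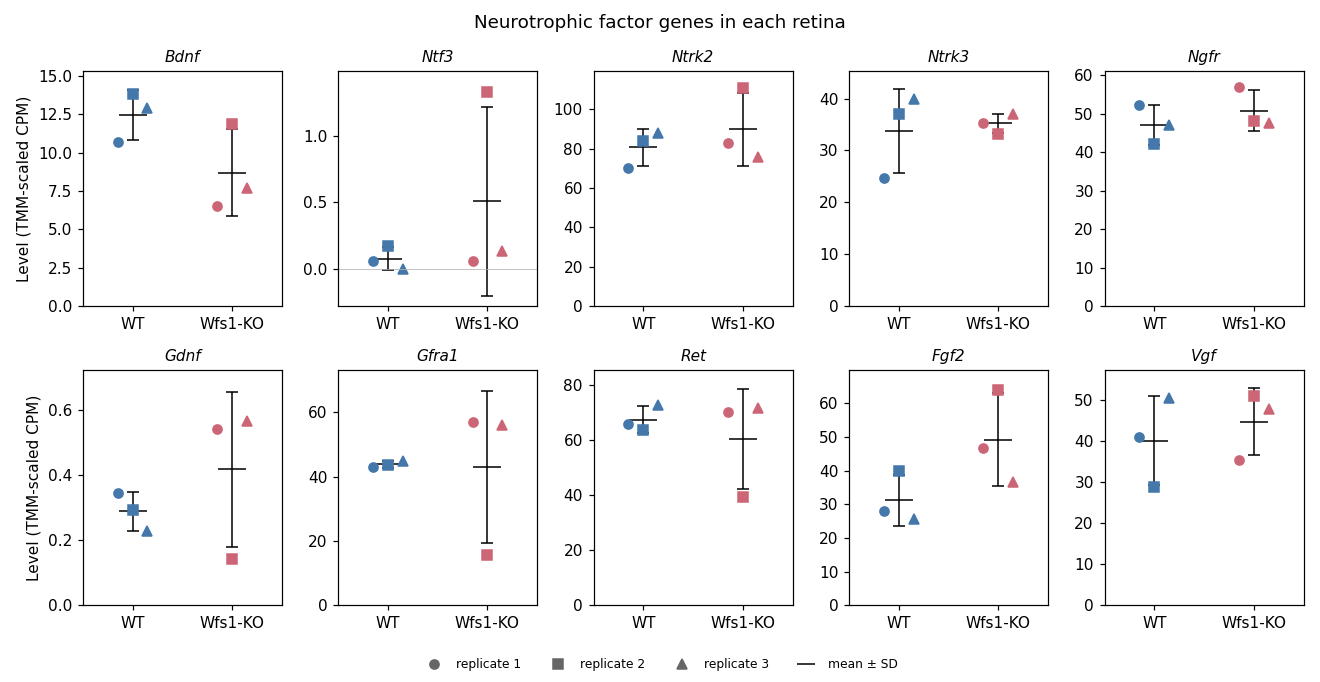
TMM-scaled CPM of the 10 neurotrophic factor genes (vertical axes, from 0 except where the SD of Ntf3 reaches below it) in 3 WT and 3 Wfs1-KO retinas, with marker shape giving the replicate and bars the mean ± SD. WT and mutant values overlapped for every gene, and Wfs1-KO replicate 2, drawn as a square, lay above all other retinas for 4 genes and below them for 3.

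Among the ligands, Bdnf was lower than in any WT retina in 2 of the 3 mutant retinas, and the difference did not pass the main test. Bdnf (ENSMUSG00000048482.14, chromosome 2 of mm10, 109674700 to 109727007, plus strand) had 10.7, 13.8 and 12.9 CPM in WT replicates 1, 2 and 3. It had 6.49, 11.9 and 7.67 CPM in the mutant replicates. Mutant replicates 1 and 3 were below every WT retina, whereas Wfs1-KO replicate 2 lay within the WT range, so the genotypes overlapped. The means were 12.4 ± 1.61 CPM in WT and 8.68 ± 2.84 CPM in Wfs1-KO (SD, n = 3 each), and the log2 fold change was -0.52 with a standard error of 0.27 and a 95% interval from -1.16 to 0.12 (adjusted p = 0.979 by the quasi-likelihood test of edgeR, Benjamini-Hochberg adjusted). Without Wfs1-KO replicate 2 it was -0.82 with a standard error of 0.19 and a 95% interval from -1.24 to -0.40, and Bdnf then ranked 86 of 19178 genes by unadjusted p. That value did not pass the edgeR test (adjusted p = 0.313), while DESeq2 gave -0.82 with an adjusted p of 0.0264 on the same 5 retinas.

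The position of Wfs1-KO replicate 2 for Bdnf depended on the scale. In TPM (counts divided by the exon length of the gene and rescaled within each retina), Bdnf was 4.67, 6.38 and 5.99 in WT and 3.16, 3.74 and 3.74 in mutant replicates 1, 2 and 3. On this scale every mutant retina was below every WT retina, a pattern that 2.95% of all tested genes showed. The count-weighted mean exon length was 3791 bases in Wfs1-KO replicate 2 and 4145 to 4612 bases in the other libraries. The median of TPM over CPM on the log2 scale was -0.55 in that retina and -0.12 to 0.02 elsewhere. This shift between the scales applied to all genes of that retina alike, Bdnf included. The order of the Bdnf values in TPM therefore does not stand apart from it. A limma fit on log2(TPM + 0.1), a choice made after the values were seen, gave Bdnf a log2 fold change of -0.66 with a standard error of 0.28 (adjusted p = 0.951, Benjamini-Hochberg). The median over all genes in that fit was -0.10, so that Bdnf lay at -0.56 relative to it. That median compares the genotypes and does not remove the shift of Wfs1-KO replicate 2 alone. That fit gave -0.70 without Wfs1-KO replicate 2, with a median over all genes of 0.11.

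Bdnf is transcribed in response to neuronal activity, and a list of 17 immediate early and other activity-dependent genes was therefore read beside it. Of the 16 tested, 7 were below every WT retina in all 3 mutant retinas, a pattern shown by 3.94% of all tested genes, and none was above. Their summed level was 556 to 573 CPM in WT and 435 to 481 CPM in mutant retinas, without overlap. The sum of Wfs1-KO replicate 2, 435 CPM, was close to the 437 CPM of mutant replicate 1, but single genes stood apart in it. Of the 17 genes, 3 were above every other retina there and 7 below, among them Dusp4 at 4.05 CPM against 45.4 to 65.7 CPM elsewhere. No gene of the list passed the adjusted edgeR test on 6 retinas. In that fit 5 genes, each lower in mutants, had an unadjusted p under 0.05, against 2.81% of all genes. Without Wfs1-KO replicate 2 there were 7, against 5.19%. DESeq2 called 2 on 6 retinas, Egr3 and Nr4a3, both lower, against 0.246% of all genes. The median log2 fold change of the list was -0.38 on 6 retinas and -0.32 without Wfs1-KO replicate 2. Markers of retinal ganglion cells, one of the cells that make BDNF, summed to 1432 to 1679.5 CPM in WT and to 1273, 1905 and 1395 CPM in mutant replicates 1, 2 and 3. Mutant replicates 1 and 3 were thus below every WT retina. The sum was highest in Wfs1-KO replicate 2, but its genes diverged there, with 8 of the 14 above every other retina and 3, among them Pou4f2 and Slc17a6, below every other retina. In all mutants 2 of the 14 were below every WT retina, against 3.94% of all tested genes, and none was above. An unadjusted edgeR p under 0.05 was found for 1 gene on 6 retinas, against 2.81%, and for 3 without Wfs1-KO replicate 2, against 5.19%, each lower in mutants. The median log2 fold change was -0.10 and -0.24. The part of either list in the Bdnf values was not tested.

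The 5 genes whose log2 CPM followed Bdnf most closely over the 6 retinas were Mkks, Syt15, Tmem237, Oit3 and Gm28514, with Pearson r of 0.991, 0.975, 0.972, 0.972 and 0.959. They were the highest among all tested genes and are given as a description, since 6 retinas of the same libraries underlie every value. Mkks, for instance, had 19.0, 20.4 and 20.1 CPM in WT and 16.0, 19.0 and 17.1 CPM in mutant replicates 1, 2 and 3. As with Bdnf, mutant replicates 1 and 3 held the lowest Mkks values.

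Ntf3, which encodes NT-3, was near the limit of counting. It had 4, 8 and 0 counts in WT and 6, 56 and 6 counts in mutant replicates 1, 2 and 3. Only Wfs1-KO replicate 2 exceeded 8 counts, and the other mutant retinas lay within the WT range. A count of 0 in WT replicate 3 allows up to 0.170 CPM, taken as 3 counts of that library and covering counting error only. As over 70% of low counts were even, the limit would be 0.341 CPM if each read pair had been counted as 2, and the other low counts of Ntf3 and Gdnf would carry correspondingly less information. In a fit without the low-count filter its log2 fold change was 2.44 with a standard error of 1.19 (adjusted p = 0.876 by the quasi-likelihood test of edgeR). Ntf5, which encodes NT-4, was also low, between 0.0903 and 0.168 CPM over the 6 retinas.

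The neurotrophin receptors showed no genotype difference that exceeded the spread. Ntrk2 had 70.2, 83.8 and 88.0 CPM in WT and 82.9, 111 and 75.7 CPM in mutant replicates 1, 2 and 3. The values overlapped, and the highest was Wfs1-KO replicate 2. Its log2 fold change was 0.15 with a 95% interval from -0.32 to 0.63, and -0.03 with an interval from -0.34 to 0.29 without that retina. Within a retina, the TPM of Ntrk2 was 2.39 to 2.68 times that of Bdnf in WT and 5.01, 3.66 and 3.87 times in mutant replicates 1, 2 and 3, a ratio chosen after the values were seen and not tested. Its size depends on the exon lengths deposited for these genes.

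Ntrk3, the NT-3 receptor gene, had 24.6, 37.1 and 39.8 CPM in WT and 35.4, 33.2 and 37.0 CPM in mutant retinas. WT replicate 1 was the lowest of all, and the 3 mutant retinas lay between the WT extremes. On the log2 scale the difference was 0.06, with a 95% interval from -0.45 to 0.57, and 0.10 without Wfs1-KO replicate 2. It was -0.13 when WT replicate 1 was left out.

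Ngfr, which encodes p75NTR, had 52.4, 42.1 and 47.0 CPM in WT and 57.0, 48.0 and 47.5 CPM in mutant retinas. The highest value was Wfs1-KO replicate 1, and the rest overlapped. Its log2 fold change was 0.11 with a 95% interval from -0.29 to 0.51, and 0.14 without Wfs1-KO replicate 2. The interval on 6 retinas was the narrowest among the members and still included a change by 0.51 upward on the log2 scale. All 9 genes of the neurotrophin receptor list, which adds the sortilin family, were tested, and none was separated between genotypes.

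The GDNF receptor pair was dominated by 1 mutant retina. Gfra1, the co-receptor gene, had 43.0, 43.5 and 44.9 CPM in WT and 56.8, 15.7 and 56.1 CPM in mutant replicates 1, 2 and 3. The WT retinas were nearly equal, mutant replicates 1 and 3 were above all of them, and Wfs1-KO replicate 2 was far below. The log2 fold change was -0.03 with a standard error of 0.44 and a 95% interval from -1.06 to 1.00. Without Wfs1-KO replicate 2 it was 0.36 with a standard error of 0.13 and a 95% interval from 0.08 to 0.64 (adjusted p = 0.753 by the quasi-likelihood test of edgeR, Benjamini-Hochberg adjusted), so the sign turned with that retina.

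Ret, the signalling kinase of the pair, had 65.6, 63.5 and 72.8 CPM in WT and 70.1, 39.4 and 71.7 CPM in mutant replicates 1, 2 and 3. As for Gfra1, Wfs1-KO replicate 2 was the lowest retina, but mutant replicates 1 and 3 lay within the WT range. The log2 fold change of Ret was -0.16 with a 95% interval from -0.75 to 0.43, and 0.07 with an interval from -0.22 to 0.36 without that retina. Gfra2, the co-receptor gene for neurturin, did not share the low value, with 43.7 to 48.5 CPM in WT and 41.2, 44.2 and 45.0 CPM in mutant replicates 1, 2 and 3. The low retina stood apart in other values too, in both directions. Its pigment epithelium markers summed to 509 CPM against 55.2 to 175 CPM elsewhere, and its blood markers to 481 CPM against 12.3 to 41.3 CPM. Its rod markers were lower, at 51263 CPM against 65395 to 73580 CPM, whereas its amacrine cell markers were higher, at 1858 CPM against 1588 to 1654 CPM. Their part in the low Gfra1 and Ret was not tested.

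Gdnf was scarce, with 0.346, 0.294 and 0.227 CPM in WT and 0.543, 0.142 and 0.568 CPM in mutant replicates 1, 2 and 3. These levels rest on 4 to 23 counts in WT and 6 to 56 counts in mutant retinas. Mutant replicates 1 and 3 were above every WT retina and Wfs1-KO replicate 2 below, the same arrangement as for Gfra1. As a log2 fold change this was 0.51 with a 95% interval from -0.93 to 1.95, and 0.88 with an interval from -0.25 to 2.01 without that retina, and neither passed the test (adjusted p = 0.979 and 0.966 by the quasi-likelihood test of edgeR).

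Artn, which encodes the related ligand artemin, was the only gene of the GDNF family ligand list separated between genotypes. It had 0.422, 0.420 and 0.227 CPM in WT and 0.796, 0.924 and 0.636 CPM in mutant retinas. The counts were 28, 20 and 4 in WT and 82, 39 and 28 in mutant replicates 1, 2 and 3. At 4 counts WT replicate 3 lay below 0.341 CPM, its limit above if each read pair had been counted as 2. Every mutant retina was above every WT retina, as for 5.01% of all tested genes. This gave a log2 fold change of 1.09 with a standard error of 0.44, and 0.93 with a 95% interval from -0.12 to 1.99 without Wfs1-KO replicate 2. Neither passed the test (adjusted p = 0.979 and 0.963 by the quasi-likelihood test of edgeR). Neurturin and persephin, encoded by Nrtn and Pspn, were highest in Wfs1-KO replicate 2, at 23.9 and 4.81 CPM, and overlapped between genotypes. Gfra3 did not pass the filter, and Gfra4 ranged from 12.7 to 19.7 CPM in WT and from 15.3 to 28.6 CPM in mutants.

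Fgf2 was the member with the smallest unadjusted p on 6 retinas. Fgf2 (ENSMUSG00000037225.13, chromosome 3 of mm10, 37348346 to 37410108, plus strand) had 28.1, 39.9 and 25.7 CPM in WT and 46.9, 64.0 and 36.7 CPM in mutant replicates 1, 2 and 3. Mutant replicates 1 and 2 were above every WT retina, while mutant replicate 3 lay below WT replicate 2. The means were 31.2 ± 7.61 and 49.2 ± 13.8 CPM (SD, n = 3 each), and the log2 fold change was 0.65 with a standard error of 0.27 and a 95% interval from 0.02 to 1.29 (adjusted p = 0.979 by the quasi-likelihood test of edgeR, Benjamini-Hochberg adjusted). Without Wfs1-KO replicate 2 it was 0.41 with an interval from -0.02 to 0.85 (adjusted p = 0.962).

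Markers of reactive glia were read beside Fgf2. Of these 12 genes, which include Gfap, 9 were above every WT retina in all mutant retinas, against 5.01% of all tested genes. The edgeR test called none of them on 6 retinas and 1 without Wfs1-KO replicate 2, against 0.0108% and 0.125% of all genes. DESeq2 called 4 on 6 retinas, against 0.246%. In edgeR 10 had an unadjusted p under 0.05 on 6 retinas, against 2.81%. Their summed level was 242 to 281 CPM in WT and 398, 1077 and 322 CPM in mutant replicates 1, 2 and 3. In CPM the mutant retina with the most Fgf2 also had the most reactive glia marker RNA, and the one with the least had the least. The WT retinas did not follow this order, as WT replicate 2 had the most Fgf2 of them and the lowest sum, 242 CPM. In TPM Fgf2 was 21.7, 19.2 and 17.1 in mutant replicates 1, 2 and 3, so replicate 2 was not the highest on that scale. The median log2 fold change of these markers was 1.91 on 6 retinas and 1.17 without Wfs1-KO replicate 2. Their part in the Fgf2 values was not tested. Exons of Fgf2 share 640 bases, 9.81% of its exon length, with Nudt6 on the opposite strand, and reads there cannot be told apart without strand. Nudt6 had 1.11 to 1.40 CPM in WT and 2.49, 1.18 and 1.93 CPM in mutant replicates 1, 2 and 3, so its order over the mutants was not that of Fgf2. Bdnf likewise shares 896 bases with the antisense gene Gm45346, which had at most 8 counts in any retina, and Gfra1 shares 416 bases with Gm16277, which had 0 counts in all 6.

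**Figure D2:**
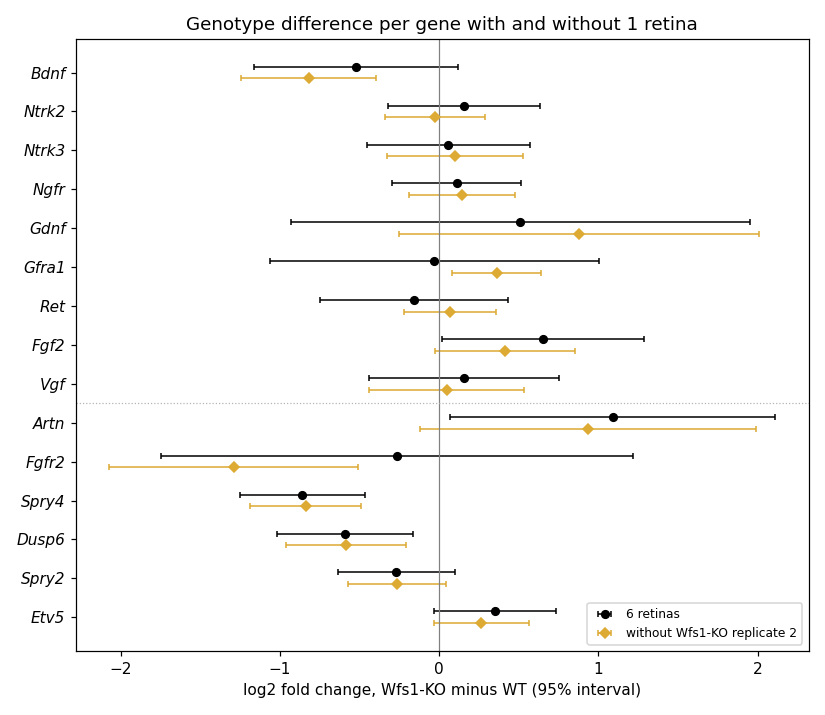
Log2 fold change of each tested member (above the dotted line) and of 6 related genes, Wfs1-KO minus WT, with 95% intervals from edgeR, on 6 retinas (black circles) and without Wfs1-KO replicate 2 (yellow diamonds). For Bdnf and Gfra1 the interval lies on 1 side of 0 only without that retina, and for Fgf2 only with it, whereas Spry4 and Dusp6 stay below 0 in both.

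Of the genes that FGF and other receptor kinases induce as feedback through ERK, Spry4 and Dusp6 were lower in every mutant retina, and only Spry4 passed a test, that of DESeq2. Spry4, which encodes a Sprouty inhibitor of receptor kinase signalling, had 18.3, 18.8 and 18.7 CPM in WT and 9.996, 9.80 and 10.9 CPM in mutant replicates 1, 2 and 3. The genotypes were widely separated, and Wfs1-KO replicate 2 did not stand apart. The log2 fold change was -0.86 with a standard error of 0.17 and a 95% interval from -1.25 to -0.47, and -0.84 without that retina. Spry4 did not pass the quasi-likelihood test of edgeR (adjusted p = 0.906 on 6 retinas and 0.136 without Wfs1-KO replicate 2) and passed with DESeq2 (adjusted p = 0.0203 and 0.00119), which called no other gene of the 109 in the wider trophic lists on 6 retinas.

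Dusp6, the phosphatase that inactivates ERK, had 17.5, 17.1 and 20.1 CPM in WT and 11.0, 11.9 and 13.4 CPM in mutant retinas. Here too every mutant retina was below every WT retina. Dusp6 thus had a log2 fold change of -0.59 with a standard error of 0.18 (adjusted p = 0.979 from edgeR and 0.675 from DESeq2), and it was -0.58 without Wfs1-KO replicate 2.

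Among the other 18 tested genes of the FGF receptor and feedback list, 2 were separated in CPM, beside 5.01% of all tested genes separated upward and 3.94% downward. In TPM both of these overlapped between genotypes. Spry2, another Sprouty gene, had 62.2, 56.2 and 65.6 CPM in WT and 54.4, 50.3 and 48.1 CPM in mutants, below every WT retina. Etv5, an ETS factor that FGF signalling induces, was the reverse, with 31.4, 33.1 and 30.0 CPM in WT and 39.3, 44.5 and 36.7 CPM in mutants. Neither had an unadjusted p under 0.05 with or without Wfs1-KO replicate 2, and the list as a whole had a median log2 fold change of 0.04. Spry1, Spred1 and Spred2, further genes of the list, overlapped between genotypes, with log2 fold changes of -0.05, -0.10 and -0.22 on 6 retinas. Without Wfs1-KO replicate 2 they were -0.20, 0.06 and 0.06. Of the receptors, Fgfr1 was at 26.4 to 36.9 CPM over the 6 retinas, Fgfr3 at 0.749 to 1.18 CPM and Fgfr4 at 1.02 to 2.06 CPM, all with overlap. Fgfr2 had 1.69, 2.82 and 2.95 CPM in WT and 1.16, 4.21 and 0.817 CPM in mutant replicates 1, 2 and 3, so that its log2 fold change was -0.27 on 6 retinas and -1.29 without Wfs1-KO replicate 2 (adjusted p = 0.979 and 0.505, edgeR). Fgf1, the other ligand gene of its subfamily, ranged from 67.0 to 74.8 CPM in WT and from 56.7 to 89.0 CPM in mutants.

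**Figure D3:**
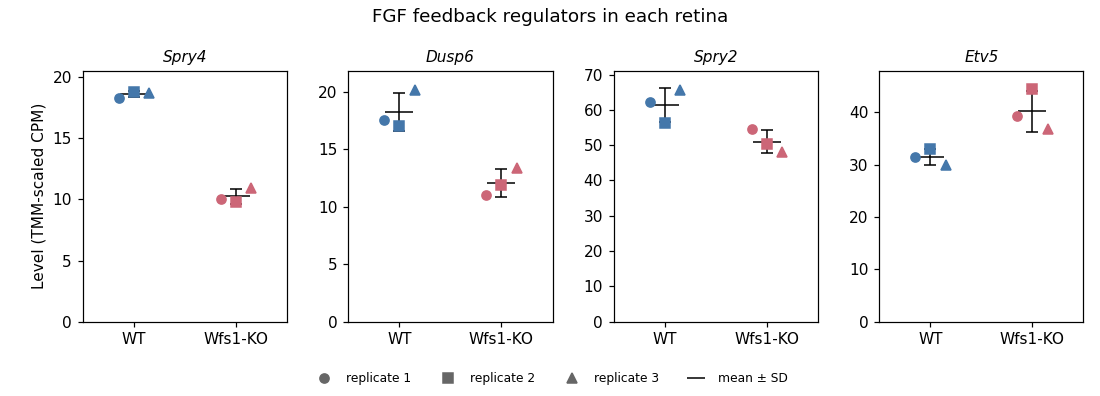
TMM-scaled CPM (vertical axes from 0) of 4 genes known as outputs or inhibitors of FGF signalling in 3 WT and 3 Wfs1-KO retinas, with marker shape giving the replicate and bars the mean ± SD. These 4 were drawn because they were the genes of the FGF receptor and feedback list with separated genotypes in CPM, and its other tested genes overlapped. Spry4, Dusp6 and Spry2 were lower in every mutant retina than in every WT retina in CPM, and Etv5 was higher, while in TPM Spry2 and Etv5 overlapped between genotypes.

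Vgf, a neuropeptide precursor gene that neurotrophins induce in neurons, had 41.01, 28.9 and 50.7 CPM in WT and 35.5, 51.0 and 47.8 CPM in mutant replicates 1, 2 and 3. The lowest value was in WT replicate 2, and the genotypes overlapped over nearly their whole range. For Vgf the log2 fold change was 0.16 with a 95% interval from -0.44 to 0.75, and 0.05 without Wfs1-KO replicate 2. Mutant replicates 1 and 3, in which Bdnf was below every WT retina, lay within the WT range for Vgf.

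Per length, the members spanned a wide range in WT retinas. In WT the mean TPM was 38.7 for Ngfr, 38.6 for Vgf, 28.2 for Ret, 26.7 for Gfra1, 14.5 for Ntrk2, 13.6 for Fgf2, 5.68 for Bdnf, 4.38 for Ntrk3, 0.222 for Gdnf and 0.126 for Ntf3. Neighbours in this order overlapped across the 3 WT retinas except at 3 steps, from Gfra1 to Ntrk2, from Fgf2 to Bdnf and from Ntrk3 to Gdnf. Bdnf was thus below Ntrk2, and Gdnf below Gfra1 and Ret, in each WT retina. An order between genes rests on the deposited exon lengths, such as 15836 bases for Ntrk2, 22013 for Ntrk3 and 6217 for Bdnf. Counts per gene do not separate transcript forms, which can be shorter. In mutant retinas the mean TPM of Bdnf was 3.55 and that of Ntrk3 was 4.31, the reverse of their WT order, although their values overlapped in both genotypes.

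**Figure D4:**
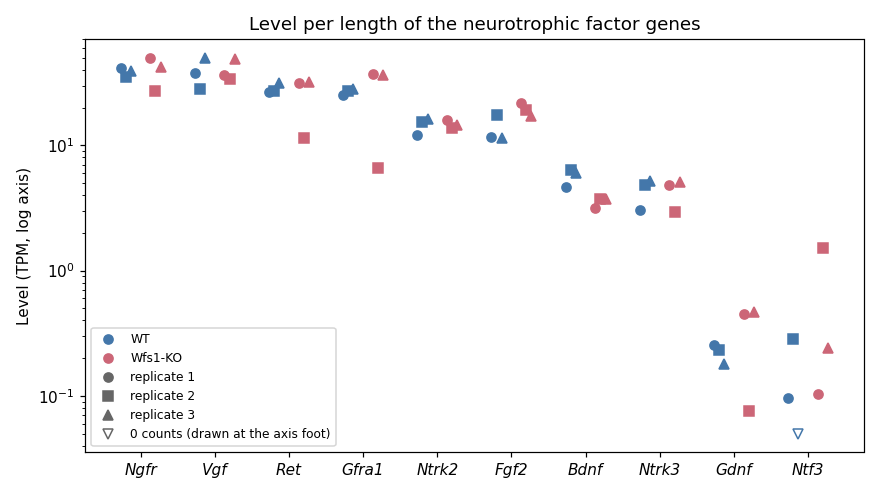
TPM (vertical log axis) of the 10 neurotrophic factor genes in WT (blue) and Wfs1-KO (red) retinas, in the order of their WT means, with marker shape giving the replicate and an open triangle for the WT retina with 0 counts of Ntf3. In WT retinas Gdnf and Ntf3 lie far below the other genes, while Ntf3 reaches 1.51 TPM in Wfs1-KO replicate 2. For Bdnf the mutant values lie below the WT values on this scale, on which all genes of Wfs1-KO replicate 2 are shifted downward relative to CPM.

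In the wider trophic pathways few genes were separated between genotypes. Of 109 genes in 9 trophic lists, members included, 102 were tested, and none passed the adjusted edgeR test on 6 retinas or without Wfs1-KO replicate 2. At an unadjusted p under 0.05 there were 4 on 6 retinas, namely Fgf2 and Artn higher and Spry4 and Dusp6 lower, against 2.81% of all tested genes. Without Wfs1-KO replicate 2 there were 7, against 5.19%, with Gfra1, Plat and Nudt6 higher and Bdnf, Fgfr2, Spry4 and Dusp6 lower, so that Fgf2 and Artn were no longer among them. In CPM 5 genes were above every WT retina in all mutants and 6 were below, against 5.01% and 3.94% of all tested genes. The median log2 fold change was 0.04 over the 102 genes, beside 0.02 over all tested genes.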

How the data were processed

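Whole-retina RNA-seq of 3 WT and 3 Wfs1-KO mice was analysed. Per the submitters' processing notes, reads were handled with Trimmomatic 0.39, STAR 2.5.3a and featureCounts 1.6.4 on mm10, and the authors deposited raw counts per gene, whole numbers without normalization. In each library over 70% of the counts from 1 to 10 were even, and counts were used as deposited. Columns named C and W were read as control and Wfs1-KO with their replicate number, and 2 further library columns, which correspond to none of the listed samples, were set aside. The labels name a phenol reagent for RNA, the study's methods a column kit. The methods state 3 different mice per group.

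Counts were filtered with filterByExpr, scaled with TMM and tested with edgeR 4.0.16 (quasi-likelihood, genotype as the only term, Benjamini-Hochberg over all tested genes) in R 4.3.3, with limma 3.58.1 and DESeq2 1.42.0 as alternatives. Fold changes are Wfs1-KO minus WT. CPM and TPM were computed from the counts and the deposited exon lengths, and positions and overlaps were taken from GENCODE M21. The test was checked on simulated data before use. Replicate numbers did not pair the retinas, since the deviations of same-numbered retinas from their genotype means correlated at -0.23, -0.11 and 0.08.

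The members and gene lists were chosen with earlier results of these data known. Named beyond the members were family neighbours whatever their values (some are not reported here), the 5 genes most correlated with Bdnf, genes overlapping a member, and list genes that were called or, failing that, had separated genotypes and an unadjusted p under 0.05. Spry2, Etv5, Plat and the scale comparison for Bdnf were added after their values were seen.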

Additional observations from a re-analysis of the deposited data

How the results depend on the processing

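The call on the members was the same under all alternatives on 6 retinas, with 0 called, and 1 was called (Bdnf, -0.82) only with DESeq2 and without Wfs1-KO replicate 2. Over all genes, 2 were called by edgeR on 6 retinas, 49 by DESeq2, 9 without the low-count filter, 1 after thinning counts to the lowest total, 0 to 24 when each retina was left out in turn (24 without Wfs1-KO replicate 2), and 95 by DESeq2 without Wfs1-KO replicate 2. With the replicate block 1 gene and no member was called. Of the trophic lists, DESeq2 called 1 gene (Spry4, -0.88) on 6 retinas and 2 (Bdnf and Spry4) without Wfs1-KO replicate 2. Limma on log2 TPM, added after seeing the data, called 7 genes and, without Wfs1-KO replicate 2, 16, with no member in either.

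Signs turned for small log2 fold changes. Without Wfs1-KO replicate 2, Ntrk2 became -0.028, Gfra1 0.36 and Ret 0.070 with edgeR and with DESeq2, and Gfra1 0.46 and Ret 0.17 with limma on log2 TPM. On 6 retinas that scale gave Ntrk3 -0.025 and Ngfr -0.0016. Ntrk3 became -0.13 without WT replicate 1, Vgf -0.036 without WT replicate 2, and Fgfr2 0.02 and 0.11 without Wfs1-KO replicates 1 and 3. Leaving out each retina in turn gave Bdnf between -0.82 and -0.35, Fgf2 between 0.41 and 0.87, Gdnf between 0.25 and 0.88, Gfra1 between -0.29 and 0.36, Ret between -0.30 and 0.070, Ntrk2 between -0.028 and 0.26, Ntrk3 between -0.13 and 0.18, Ngfr between 0.02 and 0.19, Vgf between -0.036 and 0.34 and Fgfr2 between -1.29 and 0.11. The cause of these changes was not tested. Counting limits Ntf3 and Gdnf, which had at most 56 counts in a retina, and Artn, which had 4 to 82 counts.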
